A study of Mus musculus with 48 samples.

Results

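The genes described here are 10 genes of the NRF2 antioxidant programme, taken by symbol from the count table: Nfe2l2, Nqo1, Gclc, Gclm, Srxn1, Txnrd1, Hmox1, Ugdh, G6pdx and Cat. All 10 were among the 23930 genes listed, and all 10 passed the filter on low counts that left 12672 genes for testing. They were followed in 48 mouse liver libraries, in 12 groups of 4 replicates: LX-A1656, LX-A2003 or LX-A3928, which are gapmer antisense oligonucleotides, or PBS, the vehicle, with livers taken 24 h, 72 h or 168 h from the first administration. A gapmer is a short DNA strand with modified ends that pairs with a transcript and has it cut by RNase H. The 3 oligonucleotides are all directed at Scarb1, the HDL receptor gene. Dose, oligonucleotide sequence, later administrations, strain, sex and age are not given in the labels, so the groups of a given time share a time and not a known dose. The labels do not say whether replicates came from separate animals, and p-values therefore rest on a spread between libraries that could be technical in part.

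The library kit amplifies by PCR a short stretch of every transcript it covers, and a gene's level here is the level of that stretch. Library totals ran from 8140065 to 17191129 counts. Scarb1 was at 236 CPM or more in each of the 12 PBS libraries and at 56.8 CPM or less in each of the 36 treated libraries, as the labels require. CPM stands for counts per 1000000 counts of TMM-scaled library size. Hepatocyte markers were high in PBS livers, with 7 of 8 listed markers summing to between 53260 and 72479 CPM. By 168 h the same sum was 24961 to 38080 CPM with LX-A1656, 26882 to 33038 CPM with LX-A2003 and 25237 to 80569 CPM with LX-A3928. In 4 treated groups a single library stood apart from its 3 partners over all genes: LX-A1656 replicate 1 and LX-A3928 replicate 4 at 72 h, and LX-A1656 replicate 4 and LX-A3928 replicate 3 at 168 h. LX-A3928 replicate 3 at 168 h carried Alb, the albumin gene, at 65260 CPM against 12297 to 25511 CPM in its partners.

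NRF2, the product of Nfe2l2, is a transcription factor that is held in the cytoplasm and sent for degradation by KEAP1 in unstressed cells. Oxidants and electrophiles disable KEAP1, whereupon NRF2 pairs with a small MAF protein and binds antioxidant response elements in front of its targets. The targets make glutathione, reduce quinones and oxidized proteins, break down heme, supply NADPH and conjugate foreign compounds, and in liver they are best known for defence against reactive drug metabolites. Much of the control of NRF2 is at the level of the protein, which these libraries do not measure.

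The upstream sequences of 4 members are shown, those of the genes with the largest rises (Srxn1, Nqo1), of the genes called at 24 h (Ugdh, Nqo1) and of a gene that went the other way (Gclm). They are the 250 bases before the RefSeq start on GRCm38.p6, 5′ to 3′ on the gene's strand, with any match to the motifs named after them in capitals.
Srxn1, chr2:152105274-152105523, + strand: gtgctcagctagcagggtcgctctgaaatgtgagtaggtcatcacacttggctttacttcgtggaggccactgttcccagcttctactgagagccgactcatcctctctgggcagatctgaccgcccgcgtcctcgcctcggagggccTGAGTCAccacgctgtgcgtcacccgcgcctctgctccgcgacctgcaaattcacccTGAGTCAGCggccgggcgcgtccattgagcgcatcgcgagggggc
Ugdh, chr5:65435843-65436092, - strand: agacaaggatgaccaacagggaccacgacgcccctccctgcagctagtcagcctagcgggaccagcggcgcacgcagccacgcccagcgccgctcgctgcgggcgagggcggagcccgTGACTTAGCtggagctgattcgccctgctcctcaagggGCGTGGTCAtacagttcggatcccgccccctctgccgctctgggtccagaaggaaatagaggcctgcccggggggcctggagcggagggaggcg
Gclm, chr3:122245307-122245556, + strand: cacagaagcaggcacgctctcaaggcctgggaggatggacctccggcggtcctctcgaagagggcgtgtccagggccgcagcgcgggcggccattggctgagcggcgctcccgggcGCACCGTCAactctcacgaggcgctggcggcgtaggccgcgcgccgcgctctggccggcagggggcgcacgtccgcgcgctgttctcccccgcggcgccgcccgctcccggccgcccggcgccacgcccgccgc
Nqo1, chr8:107403206-107403455, - strand: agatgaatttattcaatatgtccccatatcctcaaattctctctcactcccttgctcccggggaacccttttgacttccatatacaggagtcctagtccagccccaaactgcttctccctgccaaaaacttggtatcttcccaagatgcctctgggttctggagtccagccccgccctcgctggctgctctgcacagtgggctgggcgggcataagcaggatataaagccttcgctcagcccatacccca
The motifs searched on both strands were TGACNNNGC, the core of the antioxidant response element, TGANTCA, the AP-1 site, and TGANTCAGC, in which an AP-1 site runs into the GC that MAF proteins recognise and which therefore overlaps the AP-1 motif. Of 32851 upstream windows of that length in the table, 10.16% held the first, 6.749% the second and 1.02% the third. RefSeq windows, 10 in all, were found for 8 of the 10 members, all but Gclc and Hmox1. The percentages count windows, whereas members are counted as genes, so the 2 are not directly comparable. Of the 8 members, 5 held TGACNNNGC: Nfe2l2, Gclm, Txnrd1 in 1 of its windows, Ugdh with 2 matches, and G6pdx. Srxn1 held no match to it but 2 AP-1 matches, of which the one 45 to 39 bases before the start continues into TGAGTCAGC. Nqo1 and Cat held none of the 3 in this window. A match describes letters and not a bound site.

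The 10 genes did not move as 1 block. Srxn1, Nqo1, Hmox1, G6pdx and Ugdh rose by 168 h with each of the 3 oligonucleotides, Nfe2l2 rose at 72 h with LX-A1656 and at 168 h with the other two, Txnrd1 rose at 72 h with LX-A1656 and LX-A2003 and at 168 h with LX-A2003 and LX-A3928, Cat fell with each at 168 h, Gclm fell or did not pass, and Gclc passed in no comparison with PBS. Where 3 values stand together for the oligonucleotides, LX-A1656 comes first, then LX-A2003, then LX-A3928. A gene is called changed where its Benjamini-Hochberg adjusted p from the edgeR quasi-likelihood F test, taken over all 12672 genes, was under 0.05. At 24 h 2 of the 10 rose with LX-A1656, where 0.986% of all genes tested were called higher and 1.88% lower. Only Nqo1 rose with LX-A2003 (all genes: 0.939% higher, 1.15% lower) and with LX-A3928 (1.68% higher, 1.58% lower) at that time.

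At 72 h 7 members rose and 2 fell with LX-A1656, where 24.7% of all genes were higher and 23.4% lower. At the same time 5 members rose with LX-A2003 (all genes: 5.48% higher, 6.55% lower) and 2 with LX-A3928 (4.47% higher, 5.33% lower). At 168 h 5 members rose and 2 fell with LX-A1656 (all genes: 34.1% higher, 29.7% lower), 7 rose and 1 fell with LX-A2003 (29.8% higher, 25.3% lower), and 7 rose and 2 fell with LX-A3928 (27.3% higher, 20.7% lower). The median log2 fold change of the 10 members was 1.36 with LX-A1656 at 72 h against 0.05 over all genes. At 168 h it was 0.32, 1.15 and 1.28 for the 3 oligonucleotides, against 0.10, 0.04 and 0.08 over all genes. A large share of the liver transcriptome had moved by then, so that a call at 168 h is common among all genes and not particular to these.

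**Figure D1:**
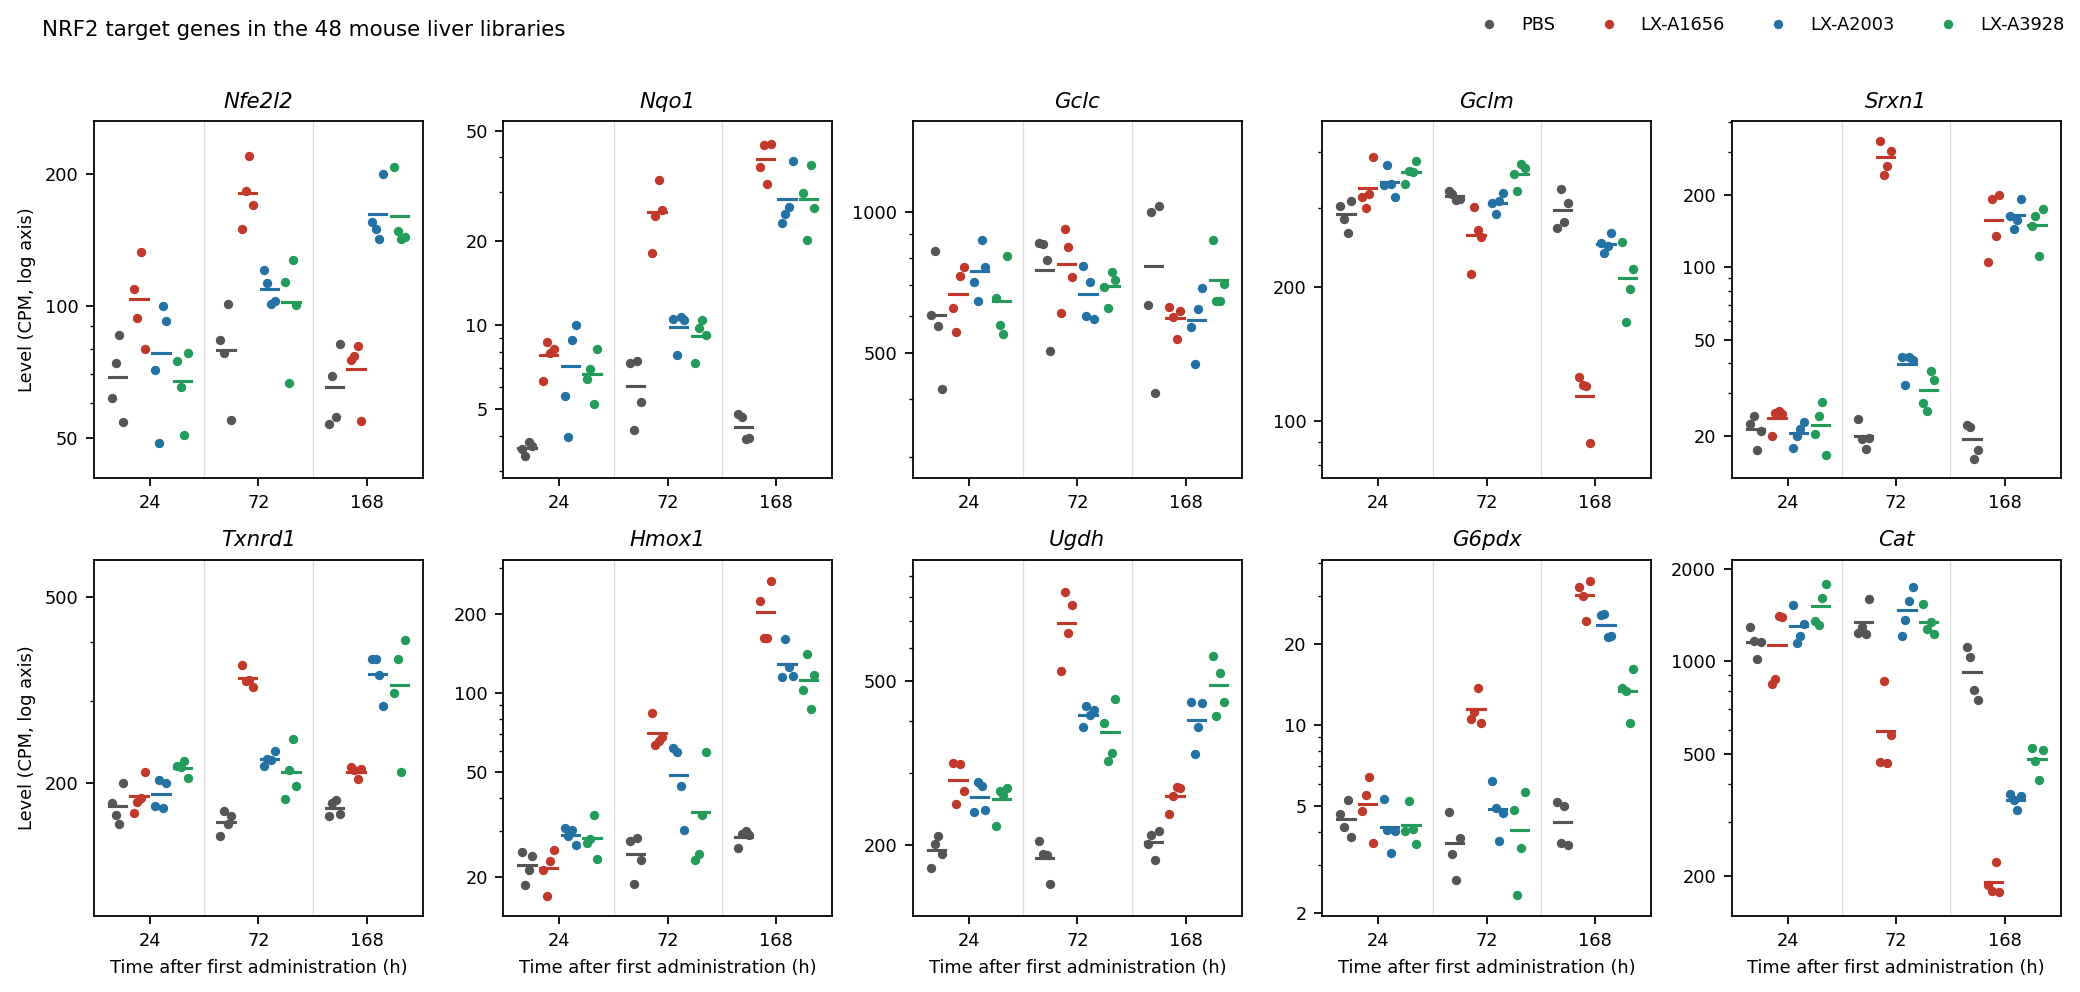
Level of each of the 10 genes in all 48 libraries, in CPM on a log axis, by hours after the first administration. Points are libraries and horizontal bars are group means of 4 libraries. Srxn1 is highest with LX-A1656 at 72 h (287 CPM on average), and Cat is lowest with LX-A1656 at 168 h (191 CPM).

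Nfe2l2 itself rose at different times with different oligonucleotides, 2.28-fold with LX-A1656 at 72 h and 2.48-fold and 2.46-fold with LX-A2003 and LX-A3928 at 168 h. Values of a group are given in the order of replicates 1 to 4. At 24 h it stood at 61.7, 74.2, 86.0 and 54.4 CPM with PBS and at 109, 93.9, 133 and 79.8 CPM with LX-A1656, which overlapped and did not pass (log2 fold change 0.59 ± 0.204 SE, edgeR adjusted p = 0.128). In a fit of those 2 groups only it passed (0.57, edgeR adjusted p = 0.042). At 72 h Nfe2l2 stood at 83.5, 78.1, 101 and 54.9 CPM with PBS and at 150.0, 183, 219.9 and 170.5 CPM with LX-A1656. LX-A2003 gave 121, 113, 101 and 103 CPM and LX-A3928 113, 66.6, 128 and 100.5 CPM at the same time. The LX-A1656 libraries lay above all other libraries of that time, and those of LX-A3928 overlapped PBS. The log2 fold change was 1.19 ± 0.205 (edgeR adjusted p = 4.47e-06) with LX-A1656, 0.46 ± 0.204 (adjusted p = 0.148) with LX-A2003 and 0.36 ± 0.204 (adjusted p = 0.301) with LX-A3928. The LX-A2003 value passed in a fit of LX-A2003 and PBS alone (0.45, edgeR adjusted p = 0.0349).

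By 168 h the order of the oligonucleotides had turned for Nfe2l2. PBS livers had 53.9, 69.4, 56.0 and 81.9 CPM and LX-A1656 livers 75.2, 77.1, 80.9 and 54.5 CPM, and the 2 sets overlapped. LX-A2003 livers had 156, 150.4, 142 and 200.1 CPM and LX-A3928 livers 208, 148, 142 and 144 CPM. Every library of the latter 2 groups lay above every PBS and LX-A1656 library. Log2 fold changes were 0.14 ± 0.204 (edgeR adjusted p = 0.564) with LX-A1656, 1.31 ± 0.206 (adjusted p = 6.36e-07) with LX-A2003 and 1.30 ± 0.206 (adjusted p = 1.11e-06) with LX-A3928. Scaled by library totals alone, the LX-A1656 value became 0.61 (adjusted p = 0.0156) and passed.

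Nqo1, the quinone reductase most often used as a readout of NRF2, was the member that passed soonest with all 3 oligonucleotides. At 24 h it stood at 3.59, 3.39, 3.79 and 3.69 CPM with PBS and at 6.31, 8.67, 7.96 and 8.21 CPM with LX-A1656. LX-A2003 livers had 5.58, 3.97, 8.85 and 10.0 CPM and LX-A3928 livers 6.40, 6.94, 5.19 and 8.21 CPM. All 12 treated libraries were above all 4 PBS libraries of that time. The log2 fold changes were 1.11 ± 0.243 (edgeR adjusted p = 0.00379), 0.98 ± 0.241 (adjusted p = 0.0176) and 0.89 ± 0.240 (adjusted p = 0.0253). PBS livers at 72 h, however, had 7.31, 4.20, 7.46 and 5.28 CPM, and the treated livers at 24 h overlapped these. PBS at 72 h against PBS at 24 h differed by 0.74 ± 0.246, which did not pass (adjusted p = 0.479). The Nqo1 level was low, with 29 reads in the lowest library. The 24 h call with LX-A2003 was lost when any 1 of 4 libraries was left out (PBS replicate 1 or 2, LX-A2003 replicate 3 or 4), with values from 0.77 to 0.97. With LX-A3928 it was lost without any 1 of 7 of the 8 libraries, the exception being LX-A3928 replicate 3, with values from 0.77 to 0.91.

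At 72 h Nqo1 rose to 18.2, 24.7, 33.3 and 25.9 CPM with LX-A1656, a log2 fold change of 2.08 ± 0.225 (edgeR adjusted p = 1.23e-10). LX-A2003 gave 10.5, 7.80, 10.7 and 10.4 CPM, which was 0.71 ± 0.227 (adjusted p = 0.0307) and fell short of the threshold without any 1 of 5 libraries (PBS replicate 2 or 4, LX-A2003 replicate 1, 3 or 4). LX-A3928 gave 7.30, 9.74, 10.4 and 9.22 CPM and did not pass (0.59 ± 0.228, adjusted p = 0.0928). At 168 h it was higher with all 3 oligonucleotides. PBS livers had 4.78, 4.66, 3.90 and 3.94 CPM and LX-A1656 livers 37.1, 44.4, 32.1 and 44.9 CPM, 9.13-fold higher in the fit. LX-A2003 livers had 23.3, 25.0, 26.6 and 38.8 CPM and LX-A3928 livers 29.8, 20.1, 37.6 and 26.3 CPM. No treated library came near the PBS range, and the log2 fold changes were 3.19 ± 0.235, 2.71 ± 0.234 and 2.71 ± 0.234 (edgeR adjusted p of 5.09e-16, 1.63e-13 and 2.85e-13).

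Gclc and Gclm encode the catalytic and the modifier subunit of glutamate-cysteine ligase, the first and rate-limiting enzyme of glutathione synthesis. Gclc was nearly flat. Its group means differed by at most 1.32-fold over all 12 groups, and its libraries ran from 411 to 1029 CPM in PBS livers at 168 h alone. None of the 9 comparisons with PBS passed for Gclc, and the values ran from -0.39 ± 0.198 (edgeR adjusted p = 0.0955, LX-A2003 at 168 h) to 0.31 ± 0.198 (adjusted p = 0.591, LX-A2003 at 24 h). With PBS replicate 3 at 168 h left out, the value with LX-A1656 was -0.58 (adjusted p = 0.00703) and with LX-A2003 -0.59 (adjusted p = 0.00729), both called lower. That library had the lowest Gclc level of its group.

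Against PBS Gclm was called only lower in the model of all groups, while most members went up. At 24 h it stood at 317 to 373 CPM with LX-A2003, at 338 to 381 CPM with LX-A3928 and at 263 to 311 CPM with PBS. Neither of these treated groups overlapped PBS, and neither passed in the model of all groups. The LX-A3928 value passed in a fit of LX-A3928 and PBS alone (0.31, edgeR adjusted p = 0.0196). PBS livers at 168 h had 271, 329.6, 279 and 307 CPM and LX-A1656 livers 126, 121, 120.2 and 89.6 CPM. LX-A2003 livers had 249.8, 238, 247 and 264 CPM and LX-A3928 livers 252, 166, 197 and 219 CPM. All treated libraries were below all PBS libraries, and those with LX-A1656 were lowest. Gclm fell by 1.38 on the log2 scale with LX-A1656 (SE 0.119, edgeR adjusted p = 6.88e-14). With LX-A3928 the value was -0.51 ± 0.117 (adjusted p = 0.000337), which was -0.20 (adjusted p = 0.222) with library totals alone and -0.48 (adjusted p = 0.0968) in a fit of those 2 groups only. With LX-A2003 it was -0.25 ± 0.116 and did not pass (adjusted p = 0.0652). At 72 h LX-A1656 gave 214, 302, 267 and 258 CPM against 327, 322, 313 and 314 CPM with PBS, a value of -0.29 ± 0.116 (adjusted p = 0.0333). That call was lost with library totals alone (-0.08, adjusted p = 0.657) and without any 1 of 4 libraries (PBS replicate 1 or 2, LX-A1656 replicate 1 or 4). It was also lost with no filter (-0.29, edgeR adjusted p = 0.1435) and with only the groups compared (-0.30, edgeR adjusted p = 0.0731). Without the libraries that stand apart the value was -0.21 (edgeR adjusted p = 0.113) and did not pass.

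Srxn1 and Txnrd1 belong to the thioredoxin system: sulfiredoxin 1 repairs over-oxidized peroxiredoxins, and thioredoxin reductase 1 recharges cytosolic thioredoxin with electrons from NADPH. Srxn1 had the largest fold change of the 10. At 24 h it was between 16.7 and 27.5 CPM in every library of all 4 groups and no comparison passed. At 72 h PBS livers had 23.4, 19.4, 17.7 and 19.6 CPM and LX-A1656 livers 336, 242, 264 and 305 CPM. LX-A2003 livers had 42.3, 32.5, 42.4 and 41.2 CPM and LX-A3928 livers 27.4, 25.2, 37.2 and 34.1 CPM. Every treated library was above every PBS library, and the lowest LX-A1656 library, at 242 CPM, was far above the highest library of any other group at that time, at 42.4 CPM. Srxn1 was 14.3-fold higher with LX-A1656 (log2 3.84 ± 0.188, edgeR adjusted p = 1.9e-21), 1.98-fold with LX-A2003 (0.98 ± 0.175, adjusted p = 4.5e-05) and 1.55-fold with LX-A3928 (0.63 ± 0.175, adjusted p = 0.0135). The last call was lost without PBS replicate 3 (or LX-A3928 replicate 3), with values of 0.53 to 0.57.

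Srxn1 was at similar levels with the 3 oligonucleotides at 168 h. PBS livers had 22.1, 21.7, 16.0 and 17.5 CPM and LX-A1656 livers 105, 191, 135 and 200.0 CPM. LX-A2003 livers had 163, 144, 158 and 192 CPM and LX-A3928 livers 148, 163, 112 and 175 CPM. The treated groups overlapped each other and lay far from PBS, with folds of 8.15, 8.48 and 7.71 (edgeR adjusted p of 6.14e-19, 1.27e-18 and 8.18e-18).

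At 72 h, for Txnrd1, PBS livers had 154, 175, 164 and 171 CPM and LX-A1656 livers 358, 330.1, 333 and 322 CPM. LX-A2003 livers had 218, 225, 224 and 234 CPM and LX-A3928 livers 185, 213, 249 and 197 CPM. All treated libraries were above PBS, with log2 fold changes of 1.02 ± 0.123 (edgeR adjusted p = 2.16e-09), 0.44 ± 0.122 (adjusted p = 0.00974) and 0.35 ± 0.122 (adjusted p = 0.0607), the last not called. At 168 h PBS livers had 171, 182, 185 and 172 CPM and LX-A1656 livers 217, 213, 204 and 214 CPM. LX-A2003 livers had 369, 369, 341 and 293 CPM and LX-A3928 livers 312, 369, 212 and 405 CPM. LX-A3928 replicate 3, at 212 CPM, was the only library of its group near the LX-A1656 level. The value was 0.26 ± 0.122 with LX-A1656 (adjusted p = 0.0606), which passed with RLE size factors (0.29, adjusted p = 0.0407), library totals alone (0.73, adjusted p = 2.1e-05) and DESeq2 (0.29, adjusted p = 0.0268). It was 0.95 ± 0.123 with LX-A2003 (adjusted p = 8.72e-09) and 0.87 ± 0.122 with LX-A3928 (adjusted p = 8.72e-08).

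Hmox1 encodes heme oxygenase 1, which breaks heme down to biliverdin, iron and carbon monoxide and is expressed in hepatocytes under stress and in macrophages that take up red cells. No comparison passed at 24 h. At 72 h PBS livers had 27.4, 18.8, 28.0 and 23.2 CPM and LX-A1656 livers 83.8, 63.2, 65.7 and 68.0 CPM. LX-A2003 livers had 61.9, 59.7, 44.1 and 30.0 CPM and LX-A3928 livers 23.3, 24.5, 34.3 and 59.7 CPM. The LX-A3928 libraries spread from the PBS range up to the LX-A2003 range, the highest being replicate 4, which stands apart over all genes. Log2 fold changes were 1.53 ± 0.217 (edgeR adjusted p = 9.26e-08), 1.01 ± 0.216 (adjusted p = 0.000705) and 0.54 ± 0.216 (adjusted p = 0.113). Of 8 markers of monocytes and recruited macrophages tested, 7 rose with LX-A1656 at 72 h, with a median log2 fold change of 2.52, and 1, Lyz2, with each of the others. Their summed level at that time was 138 to 147 CPM with PBS, 298 to 497 CPM with LX-A1656, 165 to 189 CPM with LX-A2003 and 139 to 218 CPM with LX-A3928, with none at 0. Of 6 Kupffer cell markers tested, 2 rose and 2 fell with LX-A1656 at 72 h, and 1 rose with LX-A3928. Their sum over the 7 measured was 177.2 to 196.6 CPM with LX-A1656 and 196.7 to 226.5 CPM with PBS. The part of both cell types in the Hmox1 level was not tested.

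At 168 h Hmox1 stood at 25.8, 29.2, 29.9 and 28.9 CPM with PBS and at 225, 162, 162 and 268 CPM with LX-A1656. LX-A2003 livers had 115, 160.2, 125 and 116 CPM and LX-A3928 livers 102, 140.2, 86.9 and 117 CPM. Every LX-A1656 library was above every library of the other groups. The folds were 7.17, 4.54 and 3.93, with log2 values of 2.84 ± 0.224, 2.18 ± 0.219 and 1.97 ± 0.218 (edgeR adjusted p of 4.42e-15, 1.42e-11 and 2.84e-10). Markers of monocytes and recruited macrophages moved beside it. Of 9 listed markers 8 were measured, and all 8 rose with each oligonucleotide at 168 h, where their summed level was 143 to 184 CPM with PBS, 1066 to 1646 CPM with LX-A1656, 667 to 914 CPM with LX-A2003 and 487 to 716 CPM with LX-A3928, with no marker at 0. Kupffer cell markers summed to 212 to 236 CPM with PBS, with 1 of 7 at 0, and to between 368 and 599 CPM over the 3 treated groups. Of 6 tested, 4 rose and 1 fell with LX-A1656, 4 rose with LX-A2003 and 5 rose with LX-A3928. The part of these cells in the Hmox1 level was not tested.

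Ugdh and G6pdx supply the cofactors of detoxification: UDP-glucose dehydrogenase makes UDP-glucuronate for glucuronidation, and glucose-6-phosphate dehydrogenase makes NADPH in the pentose phosphate pathway. Ugdh was the only member besides Nqo1 to pass at 24 h. It stood at 176, 201, 211 and 191 CPM with PBS and at 316, 252, 315 and 271 CPM with LX-A1656 (0.57 ± 0.130, edgeR adjusted p = 0.0059). LX-A2003 gave 241, 285, 279 and 243 CPM (0.43 ± 0.130, adjusted p = 0.0706) and LX-A3928 gave 223, 271, 265 and 274 CPM (0.41 ± 0.130, adjusted p = 0.0702). All 12 treated libraries were above PBS, and the latter 2 values passed with DESeq2 (adjusted p of 0.0287 and 0.0316).

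At 72 h Ugdh was at 204, 190.3, 189 and 161 CPM with PBS and at 528, 820.4, 653 and 764 CPM with LX-A1656, 3.71-fold higher. LX-A2003 gave 386, 434, 413 and 425 CPM, 2.22-fold higher, and LX-A3928 gave 397, 321, 335 and 453 CPM, 2.02-fold higher. These were log2 changes of 1.89 ± 0.134, 1.15 ± 0.131 and 1.01 ± 0.131 (edgeR adjusted p of 3.9e-16, 4.47e-09 and 1.71e-07), with no overlap with PBS. At 168 h PBS livers had 201, 212, 184 and 216 CPM and LX-A1656 livers 238, 263, 276 and 275 CPM. LX-A2003 livers had 445, 332, 388 and 441 CPM and LX-A3928 livers 574, 412, 522 and 444 CPM. LX-A1656 was thus the lowest of the 3 at this time, at 0.37 ± 0.130 (adjusted p = 0.0115) against 0.98 ± 0.131 (adjusted p = 1.92e-08) and 1.26 ± 0.132 (adjusted p = 6.22e-11).

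G6pdx was low in PBS livers, from 2.65 to 5.24 CPM over the 12 libraries, and no comparison passed at 24 h. At 72 h it was at 4.75, 3.31, 2.65 and 3.79 CPM with PBS and at 10.5, 11.2, 13.7 and 10.2 CPM with LX-A1656, a log2 fold change of 1.65 ± 0.214 (edgeR adjusted p = 1.18e-08). LX-A2003 (3.68 to 6.17 CPM) and LX-A3928 (2.32 to 5.59 CPM) overlapped PBS. At 168 h PBS livers had 5.15, 3.62, 4.98 and 3.55 CPM and LX-A1656 livers 32.6, 30.1, 24.2 and 34.2 CPM. LX-A2003 livers had 25.6, 25.8, 21.1 and 21.4 CPM and LX-A3928 livers 13.6, 13.3, 10.1 and 16.1 CPM. The LX-A3928 libraries lay between PBS and the other treated groups without overlap. The log2 fold changes were 2.81 ± 0.212, 2.44 ± 0.212 and 1.63 ± 0.211 (adjusted p of 1.17e-15, 1.93e-13 and 1.49e-08).

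Cat encodes catalase, the peroxisomal enzyme that splits hydrogen peroxide, which is abundant in hepatocytes and red cells. It was the member that fell furthest. At 24 h Cat stood at 1311 to 1785 CPM with LX-A3928 and at 1019 to 1291 CPM with PBS, without overlap. That value did not pass in the model of all groups and passed in a fit of LX-A3928 and PBS alone (0.39, edgeR adjusted p = 0.0212). At 72 h PBS livers had 1239, 1295, 1225 and 1602 CPM and LX-A1656 livers 471, 864, 468 and 574 CPM (-1.17 ± 0.172, edgeR adjusted p = 1.82e-07). LX-A2003 and LX-A3928 livers overlapped PBS, at 1214 to 1751 CPM and 1226 to 1542 CPM. At 168 h PBS livers had 1113, 1031, 809.9 and 749 CPM and LX-A1656 livers 187, 179, 222 and 178 CPM. LX-A2003 livers had 369, 355, 327 and 365 CPM and LX-A3928 livers 523, 474, 410.0 and 514 CPM. The 4 groups did not overlap. Cat fell by 2.27 on the log2 scale with LX-A1656 (SE 0.178, adjusted p = 3.44e-15), by 1.39 with LX-A2003 (SE 0.173, adjusted p = 3.84e-09) and by 0.95 with LX-A3928 (SE 0.171, adjusted p = 1.09e-05).

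Other markers fell with Cat and Gclm. Of 7 hepatocyte markers tested, 6 fell with LX-A1656 at 168 h and 5 with each of the other oligonucleotides. Alb stood at -0.89 ± 0.258 and -1.32 ± 0.261, both called, and at -0.47 ± 0.257 with LX-A3928 (edgeR adjusted p = 0.132). With the libraries that stand apart left out, among them LX-A3928 replicate 3, Alb was called lower with LX-A3928 too (-1.22, edgeR adjusted p = 6.03e-08). Scaled by library totals alone, 3, 4 and 2 of the 7 fell and 0, 1 and 1 rose. Alas2, the heme synthesis gene of red cell precursors, stood at 338 to 443 CPM with PBS at 168 h and at 25.4 to 34.9 CPM, 74.4 to 121 CPM and 120.5 to 192 CPM with the 3 oligonucleotides in turn. It fell by 3.81, 1.97 and 1.45 on the log2 scale (SE 0.174, 0.161 and 0.158, edgeR adjusted p of 4.79e-23, 3.13e-14 and 1.92e-10). The part of red cell precursors and hepatocytes in the fall of Cat was not tested, and in bulk tissue fewer cells of a type and less RNA per cell cannot be told apart.

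Markers of other cells also moved with the treatments at 168 h, and their part in the members' levels was not tested. Sinusoidal endothelial markers (6 of 6 measured) summed to 304 to 338 CPM with PBS and to 139 to 170 CPM, 181 to 222 CPM and 212 to 261 CPM with the 3 oligonucleotides in turn, with none at 0, although 2 of the 6 rose and 4 fell each time. Stellate cell and myofibroblast markers (6 of 6) summed to 413 to 445 CPM with PBS and to 1360 to 1790, 817 to 1306 and 722 to 1540 CPM, and 5 of 6 rose each time. Neutrophil markers (6 of 6) summed to 3.00 to 5.38 CPM with PBS, with 2 at 0, and to 13.0 to 34.9, 7.73 to 13.7 and 6.97 to 42.4 CPM. T and NK cell markers (5 of 5) summed to 1.45 to 2.51 CPM with PBS and to 2.33 to 6.31, 5.29 to 6.07 and 4.00 to 5.23 CPM. Of 3 tested, 1, 3 and 2 rose with the 3 oligonucleotides in turn. Cholangiocyte markers (5 of 5) summed to at most 25.0 CPM and B cell markers (2 of 3) to at most 1.02 CPM in any library of that time.

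Some of these markers had moved before 168 h. Of 7 hepatocyte markers tested, 4 fell with LX-A1656 at 72 h, where the sum was 37624 to 53000 CPM against 56383 to 62822 CPM with PBS, with none at 0. Sinusoidal endothelial markers fell at 24 h already, 3 of 6 with LX-A1656 and 2 of 6 with each of the others, and their sum was 176 to 203 CPM with LX-A1656 against 298 to 319 CPM with PBS. At 72 h 4 of 6 fell with LX-A1656 and 3 of 6 with each of the others, with sums of 122 to 134, 180 to 202 and 174 to 201 CPM against 297 to 345 CPM. All 3 neutrophil markers tested rose with LX-A1656 at 72 h, to a sum of 14.4 to 18.9 CPM over the 6 measured against 3.49 to 4.99 CPM with PBS, with 2 at 0 in each of these groups. Of 2 markers of red cell precursors tested, 1, Alas2, fell with LX-A1656 at 72 h. The sum of the 2 was 136 to 220 CPM against 279 to 346 CPM with PBS. In the same comparison 3 of 6 stellate cell and myofibroblast markers rose and 1 fell, and 2 of 3 T and NK cell markers tested rose. The part of all these cells in the 24 h and 72 h levels of the members was not tested.

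**Figure D2:**
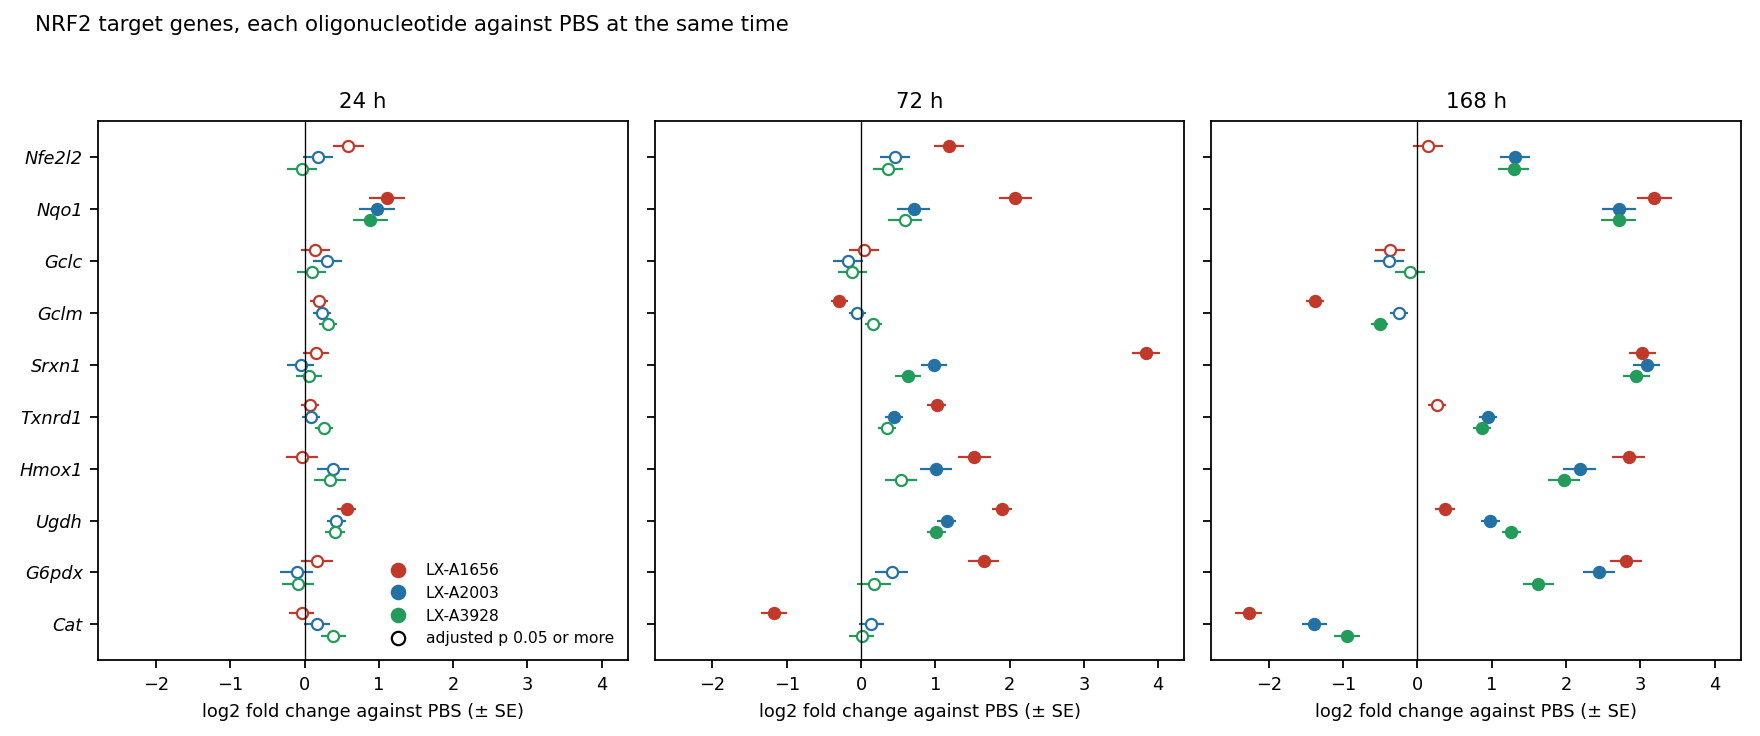
Log2 fold change of each of the 10 genes against PBS of the same time, with bars of 1 SE, at 24, 72 and 168 h. Filled points had an adjusted p under 0.05 and open points did not. Srxn1 reaches 3.84 with LX-A1656 at 72 h, and Cat reaches -2.27 with LX-A1656 at 168 h.

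The oligonucleotides were compared with each other in 9 pairs at matched times, though not at known doses. No member was called in the 3 pairs at 24 h by edgeR, where 0.284% (LX-A2003 against LX-A1656), 2.90% (LX-A3928 against LX-A1656) and 0.150% (LX-A3928 against LX-A2003) of all genes were. DESeq2 called 0 as well, and 1, 2 and 0 members had an unadjusted p under 0.05. For Nqo1, the 95% intervals of these differences ran from -0.59 to 0.33, from -0.68 to 0.24 and from -0.54 to 0.36 in log2 units. For Nfe2l2 with LX-A3928 against LX-A1656 the interval was -1.04 to -0.21, with an adjusted p of 0.0865.

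At 72 h LX-A1656 was set apart from the other two. With LX-A2003 7 members were lower and Cat was higher than with LX-A1656 (35.9% of all genes called), and with LX-A3928 7 were lower and Gclm and Cat higher (40.6% of all genes called). The largest differences were those of Srxn1, at -2.86 ± 0.179 (edgeR adjusted p = 4.2e-17) and -3.21 ± 0.182 (adjusted p = 7.95e-19). Cat was 2.48-fold and 2.27-fold higher than with LX-A1656 (adjusted p of 3.53e-08 and 2.58e-07). The Gclm difference with LX-A3928 was 0.46 ± 0.116 (adjusted p = 0.00135), and 0.16 (adjusted p = 0.337) with library totals alone. Hmox1 with LX-A2003 differed from LX-A1656 by -0.52 ± 0.210 (adjusted p = 0.0467). That call was lost with the replicate block (-0.51, adjusted p = 0.0593) and without any 1 of 5 libraries (LX-A1656 replicate 1, 3 or 4, LX-A2003 replicate 3 or 4). It was also lost with no filter (-0.52, edgeR adjusted p = 0.0609) and with only the groups compared (-0.53, edgeR adjusted p = 0.0555). Without the libraries that stand apart the difference was -0.43 (edgeR adjusted p = 0.0563) and did not pass. Between LX-A3928 and LX-A2003 at 72 h edgeR and DESeq2 called 0 members, with 2 at an unadjusted p under 0.05 and 0.718% of all genes called. The intervals were -0.70 to -0.01 for Srxn1 and -0.89 to -0.04 for Hmox1. Without LX-A3928 replicate 4 the Hmox1 difference was -0.84 (edgeR adjusted p = 0.0213) and passed.

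At 168 h the differences had 2 directions. Relative to LX-A1656, LX-A2003 and LX-A3928 had higher Nfe2l2, Gclm, Txnrd1, Ugdh and Cat and lower Hmox1, and LX-A3928 also lower G6pdx, 6 and 7 members in all (32.1% and 41.7% of all genes called). Nfe2l2 was 2.25-fold and 2.23-fold higher (edgeR adjusted p of 1.45e-05 and 1.05e-05) and Gclm 2.19-fold and 1.83-fold higher (adjusted p of 3.09e-10 and 5.9e-08). Hmox1 differed by -0.66 ± 0.207 (adjusted p = 0.012) with LX-A2003, which became -0.50 (adjusted p = 0.0727) without LX-A1656 replicate 4, and by -0.87 ± 0.208 (adjusted p = 0.0007) with LX-A3928. The Txnrd1 libraries of LX-A3928 and LX-A1656 overlapped through LX-A3928 replicate 3. Srxn1 did not pass in either pair, with intervals of -0.28 to 0.39 and -0.41 to 0.25. Nqo1 was -0.48 ± 0.203 in both, just short of the threshold (adjusted p of 0.066 and 0.0538). It passed with the replicate block in both (-0.50, adjusted p of 0.0455 and 0.0382). The LX-A3928 difference passed also with RLE size factors (-0.49, edgeR adjusted p = 0.0486), DESeq2 (-0.49, adjusted p = 0.0451), library totals alone (-0.66, edgeR adjusted p = 0.00931) and without the libraries that stand apart (-0.57, edgeR adjusted p = 0.0304). It also passed in both without LX-A1656 replicate 3 (-0.57 each), with LX-A2003 without its replicate 4 (-0.67), and with LX-A3928 without its replicate 3 (-0.64).

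Between LX-A3928 and LX-A2003 at 168 h G6pdx alone was called among the 10, where 8.10% of all genes were called. With G6pdx, 4 members had an unadjusted p under 0.05. The G6pdx difference was -0.82 ± 0.191 (edgeR adjusted p = 0.0056), and in a fit of the 2 groups only it was -0.78 (adjusted p = 0.213) and did not pass. The Cat libraries of the 2 groups did not overlap, though Cat did not pass. For Nqo1 the interval of the difference was -0.41 to 0.41, for Nfe2l2 -0.42 to 0.39, for Srxn1 -0.47 to 0.20 and for Cat 0.10 to 0.78.

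The effect against PBS changed between neighbouring times for most members with LX-A1656. With LX-A2003 and LX-A3928 it did so only from 72 h to 168 h. With LX-A1656 it differed between 24 h and 72 h for 8 members (30.2% of all genes called), most for Srxn1, by 3.69 ± 0.251 (edgeR adjusted p = 1.19e-15). From 72 h to 168 h it differed for 9 (30.1% of all genes called). The effect on Nqo1, Hmox1 and G6pdx grew by 1.11 ± 0.318, 1.31 ± 0.301 and 1.16 ± 0.298 (adjusted p of 0.00616, 0.000694 and 0.00242). That on Nfe2l2, Srxn1, Txnrd1 and Ugdh became smaller, with differences of -1.05 ± 0.288, -0.81 ± 0.243, -0.76 ± 0.172 and -1.52 ± 0.185, and that on Gclm and Cat went further below 0. The differences of Nfe2l2, Srxn1 and Txnrd1 were -0.80, -0.57 and -0.50 with library totals alone and did not pass (adjusted p of 0.0539, 0.0812 and 0.0548).

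With LX-A2003 2 members, Srxn1 and Ugdh, differed between 24 h and 72 h (2.71% of all genes called), and 7 between 72 h and 168 h (29.7%). In the later interval the effect grew by 2.10 ± 0.246 for Srxn1, 2.03 ± 0.306 for G6pdx and 2.00 ± 0.323 for Nqo1 (edgeR adjusted p of 6.59e-09, 1.14e-06 and 4.03e-06). With LX-A3928 edgeR called 0 members between 24 h and 72 h, DESeq2 called 1, and 2 had an unadjusted p under 0.05 (1.26% of all genes called). Between 72 h and 168 h 8 members differed with LX-A3928 (23.0% of all genes called), Srxn1 by 2.32 ± 0.248 and Nqo1 by 2.12 ± 0.324 (adjusted p of 1.13e-09 and 3.08e-06). PBS livers served as reference at each time. PBS at 72 h against 24 h had 0 members called by edgeR and by DESeq2 (0.0789% of all genes), with only Nqo1 at an unadjusted p under 0.05, and PBS at 168 h against 24 h had 0 by both with 0 at an unadjusted p under 0.05 (1.03% of all genes).

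The lists of other pathway genes, which do not hold the 10 members, were described in the same way, and all comparisons at a time share the same PBS libraries. Their counts are to be read against all genes tested, of which 24.7%, 5.48% and 4.47% were higher and 23.4%, 6.55% and 5.33% lower at 72 h, and 34.1%, 29.8% and 27.3% higher and 29.7%, 25.3% and 20.7% lower at 168 h. Of 9 genes tested for regulators and partners of NRF2, 5 rose and 1 fell with LX-A1656 at 72 h, 2 rose and 1 fell with LX-A2003 and 1 rose with LX-A3928, and at 168 h 4 rose and 2 fell with LX-A1656 and 3 rose and 2 fell with each of the others. The medians at 168 h were 0.41, 0.15 and -0.17 against 0.10, 0.04 and 0.08 over all genes. Mafk and Maff encode small MAF proteins, which pair with NRF2. Mafk rose by 2.88 ± 0.200 with LX-A1656 at 72 h and by 2.73 ± 0.200, 2.73 ± 0.200 and 2.05 ± 0.197 with the 3 oligonucleotides at 168 h (edgeR adjusted p from 4.06e-16 to 6.12e-12). Maff rose with LX-A3928 already at 24 h (1.96 ± 0.335, adjusted p = 0.000145). Mafg, another small MAF gene, was called higher there too, which made 2 of 9 (all genes: 1.68% higher). Bach2, which encodes a repressor that competes for MAF partners, fell by 2.77, 3.03 and 2.54 on the log2 scale at 168 h. It was also the 1 gene of the 9 called with LX-A1656 at 24 h, where it was lower (all genes: 1.88% lower). With LX-A2003 0 of the 9 were called at 24 h, and Bach2 was among those called at 72 h. Sqstm1, which encodes the p62 protein that draws KEAP1 into autophagy, rose by 2.38 ± 0.209 with LX-A1656 at 72 h and by 1.17, 1.34 and 1.11 at 168 h. Keap1, named here after its values were seen, passed once, at 0.49 ± 0.168 with LX-A1656 at 72 h (adjusted p = 0.0131). Scaled by library totals alone, the 168 h splits were 7 higher and 1 lower, 6 and 1, and 3 and 1.

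Of 7 genes of glutathione synthesis and recycling tested, 4 rose with LX-A1656 at 72 h and 1, Gss, with LX-A3928 (0.40 ± 0.118, edgeR adjusted p = 0.0203). At 168 h 3 rose and 2 fell with LX-A1656 and with LX-A2003, and 4 rose and 1 fell with LX-A3928. Gss, glutathione synthetase, the enzyme after glutamate-cysteine ligase, rose by 1.88 ± 0.121 with LX-A1656 at 72 h and by 0.93, 1.33 and 1.28 at 168 h, in the same livers in which Gclm fell or did not pass. Slc7a11, the cystine carrier that feeds glutathione synthesis, had 0 reads in all 4 PBS libraries at 168 h and 10 to 24, 19 to 50 and 3 to 11 reads per library with the 3 oligonucleotides in turn. Against a floor of 3 reads over the PBS group it was at least 11.9-fold, 25.9-fold and 6.62-fold higher. Gpx3, the secreted glutathione peroxidase, rose by 5.38 ± 0.291, 3.43 ± 0.273 and 1.75 ± 0.266 at 168 h, and Gpx1, the cytosolic one, fell by 2.19, 0.88 and 1.07. The list medians at 168 h were 0.77, 0.97 and 0.44, also with Slc7a11 set at its bound. By library totals alone, 4 rose and 1 fell with each oligonucleotide.

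Of 13 genes of the thioredoxin, peroxiredoxin and superoxide dismutase list tested, more fell than rose at 168 h: 3 rose and 9 fell with LX-A1656, 2 rose and 7 fell with LX-A2003, and 2 rose and 6 fell with LX-A3928. At 72 h 2 rose and 5 fell with LX-A1656, 2 rose with LX-A2003 and 1 rose with LX-A3928. With library totals alone the splits were 4 higher and 6 lower, 5 and 5, and 3 and 5. Sod2 and Sod1, the mitochondrial and cytosolic superoxide dismutases, fell by 1.91 and 1.69 with LX-A1656, 1.66 and 1.11 with LX-A2003, and 1.35 and 1.03 with LX-A3928. Sod3, the extracellular one, rose by 1.50, 1.53 and 0.84. Prdx6, a peroxiredoxin, rose at 72 h with LX-A2003 (0.99 ± 0.168) and LX-A3928 (0.94 ± 0.168) but stood at -0.09 ± 0.167 with LX-A1656 (edgeR adjusted p = 0.67). The list medians at 168 h were -0.72, -0.51 and -0.32. Of 7 genes of NADPH supply, 3 rose and 1 fell with LX-A1656 at 72 h, 2 (Me1 and Pgd) rose with LX-A2003 and 1 (Me1, malic enzyme 1) with LX-A3928, and at 168 h 1 rose and 5 fell with LX-A1656, 1 rose and 2 fell with LX-A2003, and 1 rose with LX-A3928. The 1 that rose at 168 h was Pgd, 6-phosphogluconate dehydrogenase, which follows G6pdx in the pentose phosphate pathway, by 1.00 ± 0.201, 1.54 ± 0.203 and 1.30 ± 0.202. With library totals alone the splits were 1 higher and 3 lower with LX-A1656 and 3 higher with no gene lower with LX-A2003.

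Of 21 genes of conjugation, reduction and export tested, 9 rose and 2 fell with LX-A1656 at 72 h, 6 rose with LX-A2003 and 4 with LX-A3928. At 168 h 8 rose and 10 fell with LX-A1656, 10 rose and 4 fell with LX-A2003, and 11 rose and 1 fell with LX-A3928, and library totals alone gave 10 higher and 8 lower, 13 and 2, and 14 and 0. Gstm2, a glutathione transferase, passed at 24 h with LX-A2003 (0.73 ± 0.173, edgeR adjusted p = 0.0113) and LX-A3928 (0.59 ± 0.173, adjusted p = 0.0414). Gstm3 rose by 4.31 ± 0.327 with LX-A1656 and 1.95 ± 0.299 with LX-A2003 at 72 h, stood at 0.55 ± 0.294 with LX-A1656 at 168 h (adjusted p = 0.0968), and rose by 4.02 ± 0.323 and 3.73 ± 0.319 with the other two at 168 h. Ptgr1, prostaglandin reductase 1, rose by 3.29 ± 0.260, 3.39 ± 0.261 and 3.64 ± 0.262 at 168 h. Gstm1 fell by 2.35 with LX-A1656 at 168 h, rose by 0.63 with LX-A3928 and stood at 0.29 ± 0.176 with LX-A2003 (adjusted p = 0.159). The Gstm genes are close paralogs, and no source used here says how reads were assigned among them, so their single values are uncertain. Of 7 genes of heme and iron handling, 4 rose and 1 fell with LX-A1656 at 72 h, and 1 rose and 1 fell with LX-A2003. At 168 h 3, 3 and 4 rose and 1 fell each time, Slc48a1, the lysosomal heme exporter, by 1.00, 1.18 and 0.89, while Slc40a1, the iron exporter ferroportin, fell by 0.68, 0.56 and 0.70. With library totals alone the 168 h splits were 5 higher with no gene lower, the same, and 5 higher and 1 lower.

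**Figure D3:**
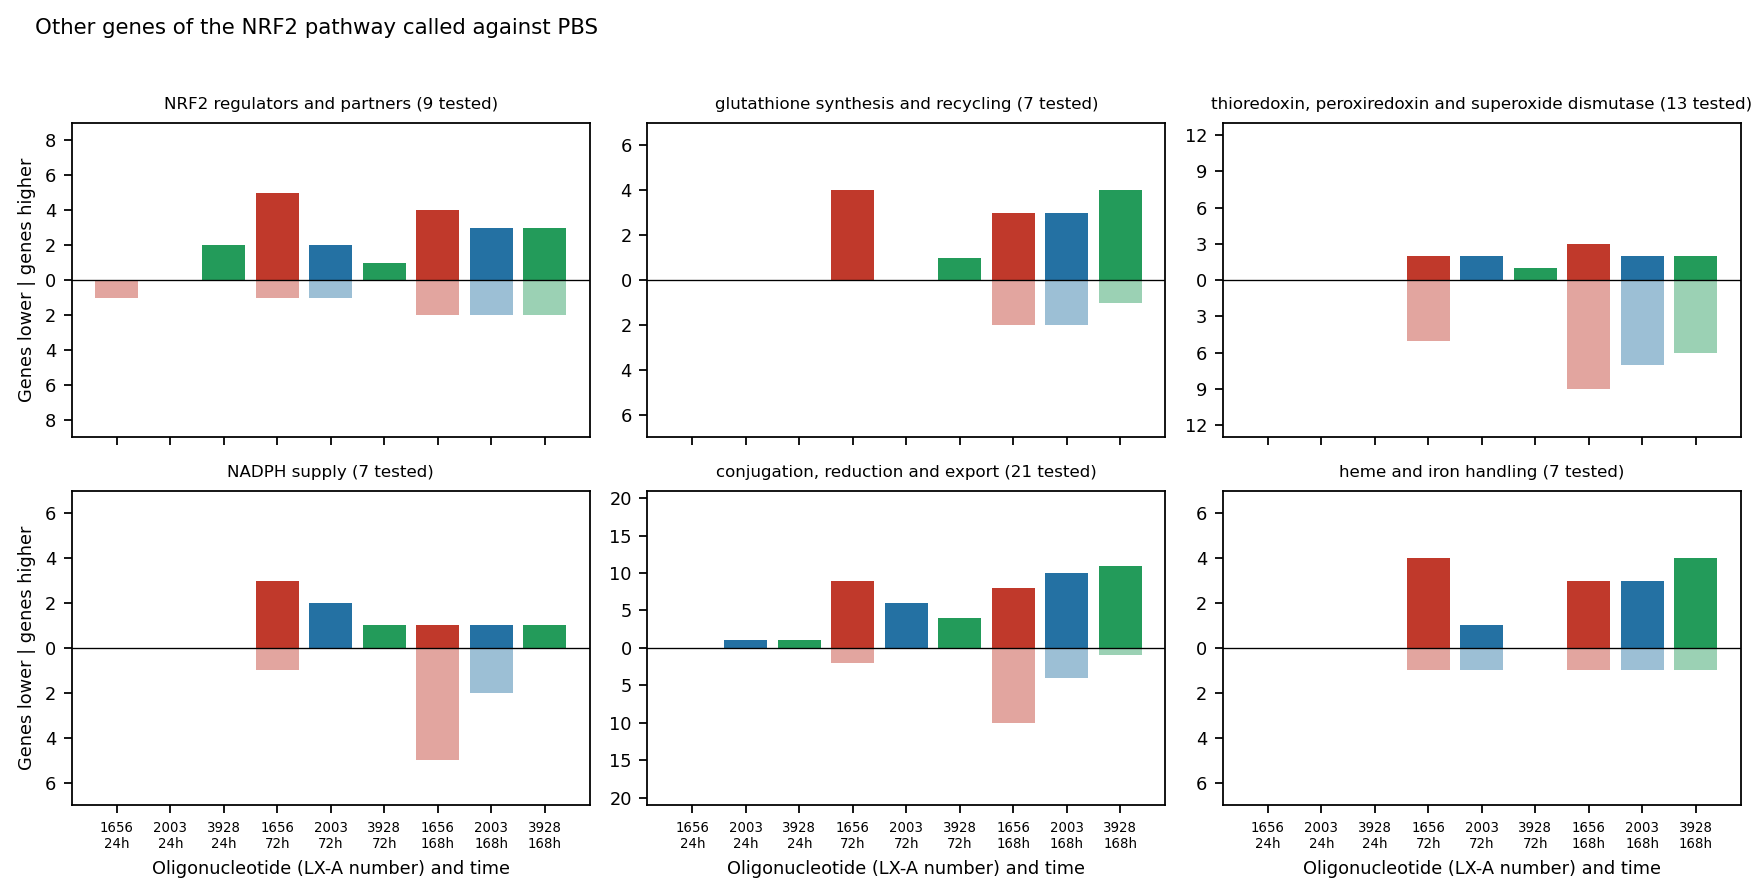
Number of genes called in the 6 other pathway lists, for LX-A1656 (red), LX-A2003 (blue) and LX-A3928 (green) against PBS at 24, 72 and 168 h. Solid bars above 0 count genes called higher, pale bars below 0 genes called lower, and the axis ends at the number tested. The thioredoxin list has 9 lower and 3 higher with LX-A1656 at 168 h.

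Across all 48 libraries the members fell into groups of like pattern, given as Pearson r of log2 CPM. These are descriptions, since libraries share treatment, time, depth and cell makeup. The highest values between members were 0.92 for Hmox1 with G6pdx, 0.91 for Nqo1 with Srxn1 and 0.89 for Gclm with Cat. The lowest were -0.92 for G6pdx with Cat and -0.87 for Hmox1 with Cat. Nfe2l2 was most like Ugdh among the members (0.81) and reached 0.62 with Nqo1 and 0.43 with Hmox1. Gclc did not exceed 0.30 with any member. Of all genes tested, those most like Nfe2l2 were Gstm3 (0.87), Abcb4 (0.87) and Cchcr1 (0.84). Those most like Nqo1 were 2410006H16Rik (0.96), Ptgr1 (0.94) and Cidec (0.94), and those most like Srxn1 were Plscr1 (0.98), Krt18 (0.97) and F11r (0.97). Hmox1 was most like Scamp5 (0.95), Ccl6 (0.95) and Cyp4f16 (0.95), and G6pdx most like Abhd2 (0.96), Pkm (0.96) and Plat (0.96). Cat was most like Masp2 (0.96), Nudt7 (0.96) and Car5a (0.96), and Gclm most like Acsm1 (0.94), Slc16a12 (0.94) and Necab1 (0.94). Txnrd1 was most like Nadk (0.90) and Jun (0.89), and Ugdh most like Mthfd2 (0.90), Cyp51 (0.90) and Nsdhl (0.89). Gclc had no close match, with Ddx59 the nearest at 0.68.

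**Figure D4:**
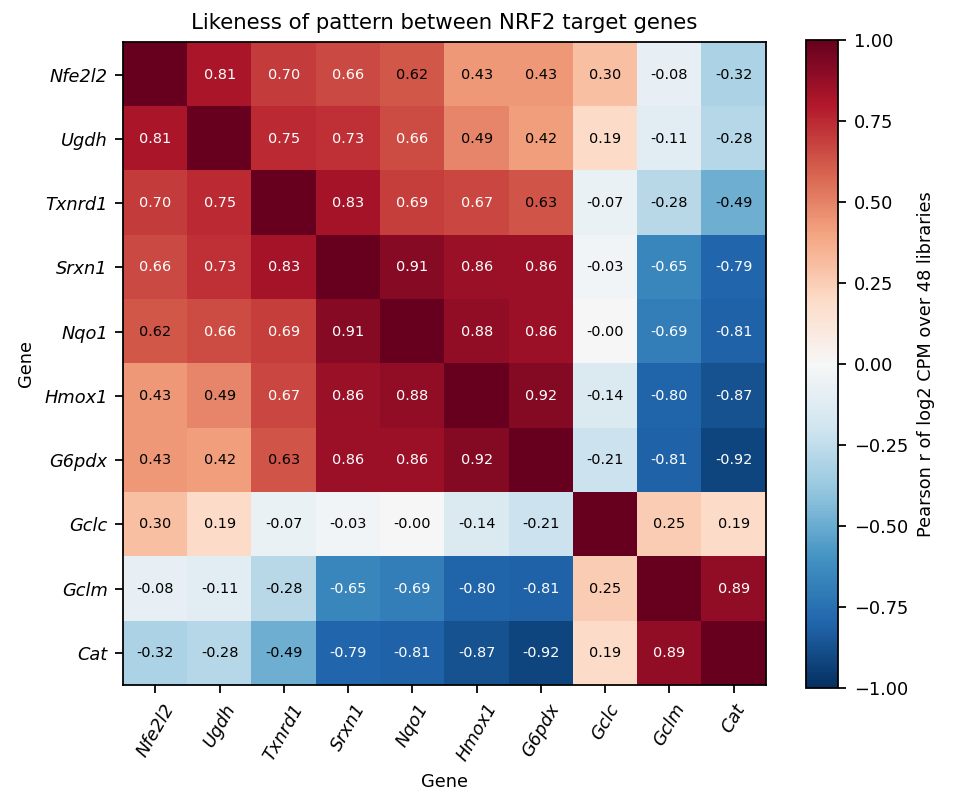
Pearson r of log2 CPM between each pair of the 10 genes over 48 libraries, from -1 (blue) to 1 (red). Nqo1, Srxn1, Hmox1 and G6pdx form a red block, and Cat is blue against them, down to -0.92 with G6pdx.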

How the data were processed

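Liver RNA was extracted by bead homogenisation in TriPure reagent and made into libraries with an Ion AmpliSeq mouse transcriptome kit, per the labels' protocols. The deposited values are raw counts per gene, whole numbers with no normalization, per the labels' kit and the values. Aligner, counter, genome build, use of strand and amplicon positions were not stated by any source used here. The 48 libraries held 8140065 to 17191129 counts (median 10659453), and intervals cover the spread between libraries, not the PCR of single molecules. Samples were grouped by treatment and time from the labels.

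The 10 genes and the other lists were chosen with earlier results of these data known. Genes were filtered with filterByExpr over the 12 groups (12672 of 23930 kept, holding at least 99.891% of each library's counts), scaled by TMM and fitted in a single model with a mean per group by the robust quasi-likelihood F test of edgeR 4.0.16 (R 4.3.3, limma 3.58.1; 36 residual degrees of freedom), with Benjamini-Hochberg adjustment over all genes of a comparison and a threshold of 0.05. SE is the size of the log2 fold change over the root of its F value, and intervals are 95%. There were 26 comparisons: 9 with PBS, 9 between oligonucleotides, 6 of an oligonucleotide's effect between neighbouring times and 2 of PBS over time. Named list genes are up to 3 called genes with the smallest p per list and comparison. Likeness is Pearson r of log2 CPM (prior count 2), with the 3 highest genes named, except where an item is not reported here. The script was checked on simulated counts. No 2 replicates agreed within sampling noise.

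Alternatives were RLE size factors, library totals alone, no filter, a replicate block, fits of only the groups compared, DESeq2 1.42.0, leaving out each library, and, chosen after seeing the data, leaving out together the 4 libraries that stand apart, whose root mean square deviation from the group mean was over 1.3 times that of the next library. Promoter windows are from RefSeq on GRCm38.p6.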

Additional observations from a re-analysis of the deposited data

Results flagged for a closer look

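In 5 of the 120 sets of 4 libraries (10 genes in 12 groups), 1 library lay far from the other 3, by the gap to its nearest neighbour as a share of the range, beyond Dixon's 95% critical value for 4 values. Chance gives such a gap in about 1 set in 20. Nfe2l2 in the LX-A3928 168 h group had replicate 1 at 208 CPM, with the nearest library at 148 CPM and a share of 0.905. Nqo1 in the LX-A2003 72 h group had replicate 2 at 7.8 CPM, with the nearest library at 10.4 CPM and a share of 0.892. Gclm in the LX-A1656 168 h group had replicate 4 at 89.6 CPM, with the nearest library at 120.2 CPM and a share of 0.844. Srxn1 in the LX-A1656 24 h group had replicate 1 at 20.0 CPM, with the nearest library at 24.5 CPM and a share of 0.848. Srxn1 in the LX-A2003 72 h group had replicate 2 at 32.5 CPM, with the nearest library at 41.2 CPM and a share of 0.878.

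The effect against PBS differed between neighbouring times by a test of the difference itself in the edgeR model. All differences are in log2 units with their SE, later time minus earlier, and all had an edgeR adjusted p under 0.05 in the model of all groups, though several did not pass under another setting. With LX-A1656 from 24 h to 72 h the members were Nqo1 0.97 ± 0.329, Gclm -0.49 ± 0.165, Srxn1 3.69 ± 0.251, Txnrd1 0.95 ± 0.173, Hmox1 1.56 ± 0.307, Ugdh 1.32 ± 0.184, G6pdx 1.48 ± 0.307 and Cat -1.14 ± 0.241, with adjusted p from 1.19e-15 to 0.0211. With LX-A1656 from 72 h to 168 h the members were Nfe2l2 -1.05 ± 0.288, Nqo1 1.11 ± 0.318, Gclm -1.08 ± 0.165, Srxn1 -0.81 ± 0.243, Txnrd1 -0.76 ± 0.172, Hmox1 1.31 ± 0.301, Ugdh -1.52 ± 0.185, G6pdx 1.16 ± 0.298 and Cat -1.10 ± 0.241, with adjusted p from 1.2e-08 to 0.00886. With LX-A2003 from 24 h to 72 h the members were Srxn1 1.04 ± 0.247 and Ugdh 0.73 ± 0.184, with adjusted p from 0.0118 to 0.0191. With LX-A2003 from 72 h to 168 h the members were Nfe2l2 0.85 ± 0.288, Nqo1 2.00 ± 0.323, Srxn1 2.10 ± 0.246, Txnrd1 0.51 ± 0.172, Hmox1 1.18 ± 0.302, G6pdx 2.03 ± 0.306 and Cat -1.52 ± 0.241, with adjusted p from 6.59e-09 to 0.0211. With LX-A3928 from 72 h to 168 h the members were Nfe2l2 0.93 ± 0.288, Nqo1 2.12 ± 0.324, Gclm -0.67 ± 0.165, Srxn1 2.32 ± 0.248, Txnrd1 0.52 ± 0.172, Hmox1 1.44 ± 0.303, G6pdx 1.45 ± 0.308 and Cat -0.95 ± 0.240, with adjusted p from 1.13e-09 to 0.0218.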

How the results depend on the processing

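No value of the 10 genes that was called reversed its direction under any alternative run. Values were sorted by their side of the threshold, and direction was read only where a value was called in either fit. Of 260 values per setting, the number that stayed the same in this sense was 258 with RLE size factors, 246 with library totals alone, 254 with no filter, 257 with the replicate block, 246 with only the groups compared and 253 with DESeq2. Leaving out 1 library at a time kept 2509 of 2560 values, and leaving out together the 4 libraries that stand apart kept 134 of 140. The cause of the changes was not tested, except that a fit with no filter tests more genes and a fit without a library has fewer samples.

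At 24 h the count of members called was 2 with only the groups compared and 2 with DESeq2 for LX-A2003 (1 in the model of all groups), and 5 and 2 for LX-A3928 (also 1). Leaving out 1 library gave 0 to 1 in both. Over all genes the calls for LX-A2003 were 754 of 10978 tested, 404 of 11935 and 265 of 12672 in turn. For LX-A3928 they were 1435 of 11029, 556 of 12425 and 413 of 12672. The members added for LX-A3928 with only the groups compared were Gclm, Txnrd1, Ugdh and Cat, all higher. For LX-A3928 at 72 h, leaving out 1 library gave 1 to 4 members against 2. The lowest count came without PBS replicate 3 (or LX-A3928 replicate 3), and the highest came without LX-A3928 replicate 1, where Txnrd1 (0.41) and Hmox1 (0.70) passed. For LX-A3928 against LX-A1656 at 24 h, only the groups compared gave 1 member against 0, and leaving out 1 library gave 0 to 1 (Nfe2l2, -0.73, without LX-A1656 replicate 4). The fit of only those groups called 1455 of 10973 genes in place of 368 of 12672. LX-A3928 against LX-A2003 gave 1 against 0 at 72 h without the libraries that stand apart, 0 to 1 when leaving out 1 library, and 0 against 1 at 168 h with only the groups compared. For the LX-A2003 effect from 24 h to 72 h, no filter gave 1 against 2 (over all genes 216 of 22477 in place of 343 of 12672), and leaving out 1 library gave 1 to 2. The same difference for LX-A3928 gave 1 against 0 with only the groups compared and with DESeq2, Ugdh both times. Over all genes those settings called 397 of 11287 and 282 of 12671 in place of 160 of 12672.

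Other calls on differences between times rested on single libraries or on the scaling. Nqo1 with LX-A1656 from 24 h to 72 h was lost without PBS replicate 2 or LX-A1656 replicate 3 of 72 h (0.82 to 0.83), Gclm without LX-A1656 replicate 4 of 24 h or replicate 1 of 72 h, and Ugdh with LX-A2003 without its replicate 1 of 24 h. From 72 h to 168 h, Nfe2l2 with LX-A2003 was lost without PBS replicate 3 of 72 h, PBS replicate 1 of 168 h or LX-A2003 replicate 4 of 168 h (0.71 to 0.77), and Txnrd1 with LX-A3928 without its replicate 1 of 72 h or replicates 2 or 4 of 168 h. With library totals alone, Gclm (-0.29) and Cat (-0.56) with LX-A3928 did not pass in that interval, nor did Gclm with LX-A1656 from 24 h to 72 h (-0.25, edgeR adjusted p = 0.347), while Nfe2l2 with LX-A1656 from 24 h to 72 h (0.84) and Ugdh with LX-A3928 from 72 h to 168 h (0.64) passed. With no filter, Gclm with LX-A1656 from 24 h to 72 h (-0.48) and Txnrd1 from 72 h to 168 h with LX-A2003 (0.50) and LX-A3928 (0.52) did not pass, the last also not with only the groups compared (0.57). Gclm with LX-A2003 at 168 h passed with DESeq2 (-0.23, adjusted p = 0.0497) and without PBS replicate 1 (-0.29).

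Replicate numbers are shared across groups, but same-numbered libraries mostly did not deviate together: over 20 comparisons and 80 pairs the correlation of deviations ran from -0.658 to 0.435, in no comparison was every pair over 0.1, and 15 of 80 libraries correlated best with their own number. For LX-A1656 against PBS at 72 h, however, 4 of 4 did so, at 0.022 to 0.165. For LX-A2003 against LX-A1656 at 72 h the correlations were 0.074 to 0.336, and 2 of 4 did so. With the replicate block the members called were 7 in place of 8 for LX-A2003 against LX-A1656 at 72 h, 7 in place of 6 at 168 h, and 8 in place of 7 for LX-A3928 against LX-A1656 at 168 h, and the counts of the other comparisons did not move.

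Over all genes, library totals alone moved the median log2 fold change to 0.268 with LX-A1656 at 72 h and to 0.564, 0.451 and 0.386 at 168 h. Higher and lower calls were then 4294 and 2153 in place of 3134 and 2968, and at 168 h 6469 and 2303 in place of 4326 and 3766, 5865 and 1685 in place of 3775 and 3212, and 5144 and 1458 in place of 3464 and 2623. With only the groups compared, the genes called at 24 h were 803, 754 and 1435 in place of 363, 265 and 413. They were 2509 in place of 1524 for LX-A2003 at 72 h, 3208 in place of 6087 for LX-A3928 at 168 h, and 29 in place of 1026 for LX-A3928 against LX-A2003 at 168 h (327 without the libraries that stand apart). DESeq2 called 404 in place of 265 for LX-A2003 at 24 h. Depth limits Nqo1 and G6pdx most, which had as few as 29 and 21 reads in a library.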
